A study of Mus musculus with 18 samples.

Results

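Glycolysis and its isoenzyme switches were followed as a set of 34 genes, listed by name. The list and the tests were chosen with earlier results of these data known. The set holds the glucose and lactate carriers, the hexokinases, the enzymes from glucose-6-phosphate to lactate, the bifunctional enzymes that set fructose-2,6-bisphosphate (the Pfkfb genes) and the pyruvate dehydrogenase kinases (the Pdk genes). All 34 were found among the 31787 symbols of the deposited count table and all 34 had enough counts to be tested. The table holds whole-kidney RNA from mice in 6 groups of 3 libraries, and 4 of the groups are kidneys after unilateral ureteral obstruction (UUO), in which the ureter of 1 kidney is tied so that the kidney loses its tubules and scars.

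The healthy kidneys came from Cre-negative mice with floxed Twist alleles ("- FF", Cdh5-CreERT2;Twist). The contralateral kidneys (the unobstructed side) and the wild-type (WT) UUO kidneys each came from 2 mice that carry Cre but no floxed allele ("+ ++") and from 1 mouse that carries floxed alleles but no Cre ("- FF"), which is replicate 3 of each group. The conditional knockout (cKO) groups were all obstructed and were "+ FF" for Cdh5-CreERT2;Twist, for Cdh5-CreERT2;Snail or for GGT-Cre;Myc. Cdh5-CreERT2 is a tamoxifen-inducible Cre of endothelial cells, and GGT-Cre is a Cre of tubular epithelium, so each deletion is aimed at only some cells of the kidney. Healthy, contralateral, WT UUO and Twist cKO mice were of a mixed C57BL6, 129sv, Balb/c strain, and the Snail and Myc cKO mice of a mixed C57BL6, Balb/c strain, so strain and genotype cannot be told apart in the latter. The mice were 12 weeks old at the end, or 11 to 12 weeks in the Myc group. The days of obstruction and the tamoxifen doses are not given in the sources used. No label says which kidneys share a mouse, and p-values measure only the spread between these libraries.

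Glycolysis splits glucose into pyruvate. Hexokinase traps the sugar in the cell, phosphofructokinase commits it to the pathway, and lactate dehydrogenase and a lactate carrier dispose of the pyruvate when it does not enter mitochondria. Several steps are served by sister genes whose products differ in affinity, regulation and tissue, and a cell can change its pathway by changing the isoenzyme. The healthy proximal tubule, which makes up most of the kidney cortex, is known for burning fatty acids and making glucose rather than consuming it, while more distal segments, macrophages and dividing cells use glycolysis.

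Library totals ran from 52637555 to 91340782 counts. Mitochondrial ribosomal RNA took 44.6 to 50.3% of the counts in unobstructed kidneys and 19.2 to 34.9% in obstructed ones, and values are therefore given as CPM, counts scaled to a common library size after TMM normalization. The 8 proximal tubule markers summed to between 12360 and 16185 CPM in the 6 unobstructed libraries, between 665 and 1580 in WT UUO and between 1661 and 4236 in the cKO libraries. In whole-kidney RNA, fewer cells of a type and less RNA per cell cannot be told apart. Of the targeted genes, Twist1 read 2.13, 4.49 and 1.14 CPM in WT UUO, against 0.378, 0.596 and 0.307 in Twist cKO (log2 fold change -2.59 ± 0.49 SE, edgeR adjusted p = 0.0172). Snai1 differed by -0.61 between Snail cKO and WT UUO (edgeR adjusted p = 0.487) and Myc by -0.45 between Myc cKO and WT UUO (edgeR adjusted p = 0.217), and neither change passed the threshold of 0.05. The position of the floxed part within each gene is not given in the sources used, so these counts check the labels only in part. The WT UUO library of replicate 1 stands apart: its 6 urothelial markers, genes of the lining of the renal pelvis and ureter, summed to 397 CPM against 95.4 and 46.0 in replicates 2 and 3 and 22.1 to 81.9 in the cKO libraries. In this library the proximal tubule markers summed to 665 CPM, against 1580 and 1366 in replicates 2 and 3. Its fibroblast and myofibroblast markers summed to 5897 CPM, against 4880 and 2985 in those replicates. Its sums of macrophage and monocyte markers (885 CPM) and of cycling cell markers (192 CPM) lay between those of replicates 2 and 3. The part of these differences in the results was not tested. Results that rest on this library are given with and without it.

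The upstream sequences of 5 members are shown because 4 of them (Hk2, Slc16a3, Pkm and Pdk2) are the members that differed between a knockout and WT UUO, and the fifth, Pgk1, encodes a shared enzyme of the pathway that fell with obstruction. Each is the 250 bases before the RefSeq gene start on GRCm38.p6, read 5′ to 3′ on the strand of the gene. Gene spans given further on are from GENCODE M21, whose starts can differ from the RefSeq ones. Capitals mark ACGTG on either strand, the core of the hypoxia response element that HIF factors bind. CACGTG, the E-box that Myc binds, contains ACGTG on both strands and is counted here as 1 site. Hk2 (chr6:82774455-82774704, minus strand) and Slc16a3 (chr11:120948817-120949066, plus strand) hold 2 sites each, and so does Pgk1 (chrX:106186850-106187099, plus strand). Pdk2 (chr11:95041372-95041621, minus strand) holds 1, which is a CACGTG, and Pkm (chr9:59656326-59656575, plus strand) holds no ACGTG in this window.
Hk2: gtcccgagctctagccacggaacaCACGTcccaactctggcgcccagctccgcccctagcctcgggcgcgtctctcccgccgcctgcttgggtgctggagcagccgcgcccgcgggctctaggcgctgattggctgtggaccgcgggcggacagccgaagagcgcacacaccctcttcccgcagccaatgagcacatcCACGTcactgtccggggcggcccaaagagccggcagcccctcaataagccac
Slc16a3: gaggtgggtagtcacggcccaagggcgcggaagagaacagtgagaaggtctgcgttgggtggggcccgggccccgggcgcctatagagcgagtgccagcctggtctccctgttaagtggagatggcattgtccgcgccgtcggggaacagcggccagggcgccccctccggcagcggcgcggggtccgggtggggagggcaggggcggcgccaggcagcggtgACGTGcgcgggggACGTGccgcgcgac
Pkm: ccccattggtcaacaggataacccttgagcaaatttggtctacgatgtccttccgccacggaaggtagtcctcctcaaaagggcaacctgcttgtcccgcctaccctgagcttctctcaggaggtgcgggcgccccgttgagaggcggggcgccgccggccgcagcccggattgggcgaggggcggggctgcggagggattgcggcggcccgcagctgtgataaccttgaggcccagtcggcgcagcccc
Pdk2: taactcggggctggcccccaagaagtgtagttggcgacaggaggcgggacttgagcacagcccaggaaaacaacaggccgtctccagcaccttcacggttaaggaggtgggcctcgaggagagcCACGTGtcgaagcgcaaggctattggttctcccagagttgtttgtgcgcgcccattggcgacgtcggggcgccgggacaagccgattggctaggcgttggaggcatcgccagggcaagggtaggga
Pgk1: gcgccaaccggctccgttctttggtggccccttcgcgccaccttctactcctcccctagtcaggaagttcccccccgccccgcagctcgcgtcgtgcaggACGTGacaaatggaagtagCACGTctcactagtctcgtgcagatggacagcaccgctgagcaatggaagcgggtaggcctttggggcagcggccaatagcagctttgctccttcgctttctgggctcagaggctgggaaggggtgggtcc
ACGTG was present in 12 of the 32 members with a usable entry (37.5%) and in 16.6% of all 32851 promoter windows of this length. CACGTG was present in 4 of 32 (12.5%) and in 6.02% of all windows. Among the members that rose with obstruction, Hk2, Hk3 and Slc16a3 hold ACGTG, and among those that fell, Pfkm, Pgk1, Pgam1, Pdk2 and Pdk3 do. The letters thus occurred both among members that rose and among members that fell. They are a description of the sequence and say nothing of whether a factor is bound.

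In the healthy kidney the most abundant members per kilobase of exon were Ldhb at 413 ± 81.4 CPM per kb (SD, n = 3), which encodes the heart-type lactate dehydrogenase subunit, Aldoa at 157 ± 22.2, Gapdh at 136 ± 23.0 and Tpi1 at 134 ± 35.9. Gapdh and Tpi1 lie within their spread. Slc2a3, Hk2 and Hk3 were the lowest, with 0.16, 0.13 and 0.09 CPM per kb. After obstruction Ldhb was again first, at 221 ± 61.5. Pkm averaged 35.8 ± 9.07 CPM per kb in healthy and 57.4 ± 22.5 in WT UUO kidneys. The latter mean leans on replicate 1, at 417 CPM against 227 and 218 in the other libraries. Ldha, Gapdh and Tpi1 averaged 81.6, 136 and 134 CPM per kb in healthy kidneys and between 58.0 and 63.0 in WT UUO.

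Obstruction moved the members in both directions. The scarce carriers Slc2a3 and Slc16a3, the hexokinases Hk2 and Hk3 and the enolase Eno2 rose by 1.79 to 5.42 on the log2 scale against healthy kidneys, while Aldoa, Tpi1, Gapdh, Pgk1, Pgam1 and Eno1 were lower, with log2 fold changes of -1.38 to -0.60. Against healthy kidneys, 9 of the 34 members were higher and 16 lower in WT UUO at an edgeR adjusted p under 0.05, where 29.2% of all 21050 genes tested were higher and 27.1% lower. Against contralateral kidneys, 7 were higher and 17 lower, where 27.5% of all genes were higher and 26.0% lower. The median log2 fold change of the members was -0.44 against healthy and -0.51 against contralateral, with medians of 0.05 and 0.06 over all genes. Both comparisons use the same 3 WT UUO libraries, so they are not independent. Markers of other cells moved too: the 7 fibroblast and myofibroblast markers summed to 223 to 340 CPM in the unobstructed libraries and 2985 to 5897 in WT UUO, and the 6 markers of cycling cells to 10.3 to 57.7 and 171 to 237 CPM. All of these markers were higher in both comparisons, none was at 0 in any group, and their part in the changes of the members was not tested.

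**Figure D1:**
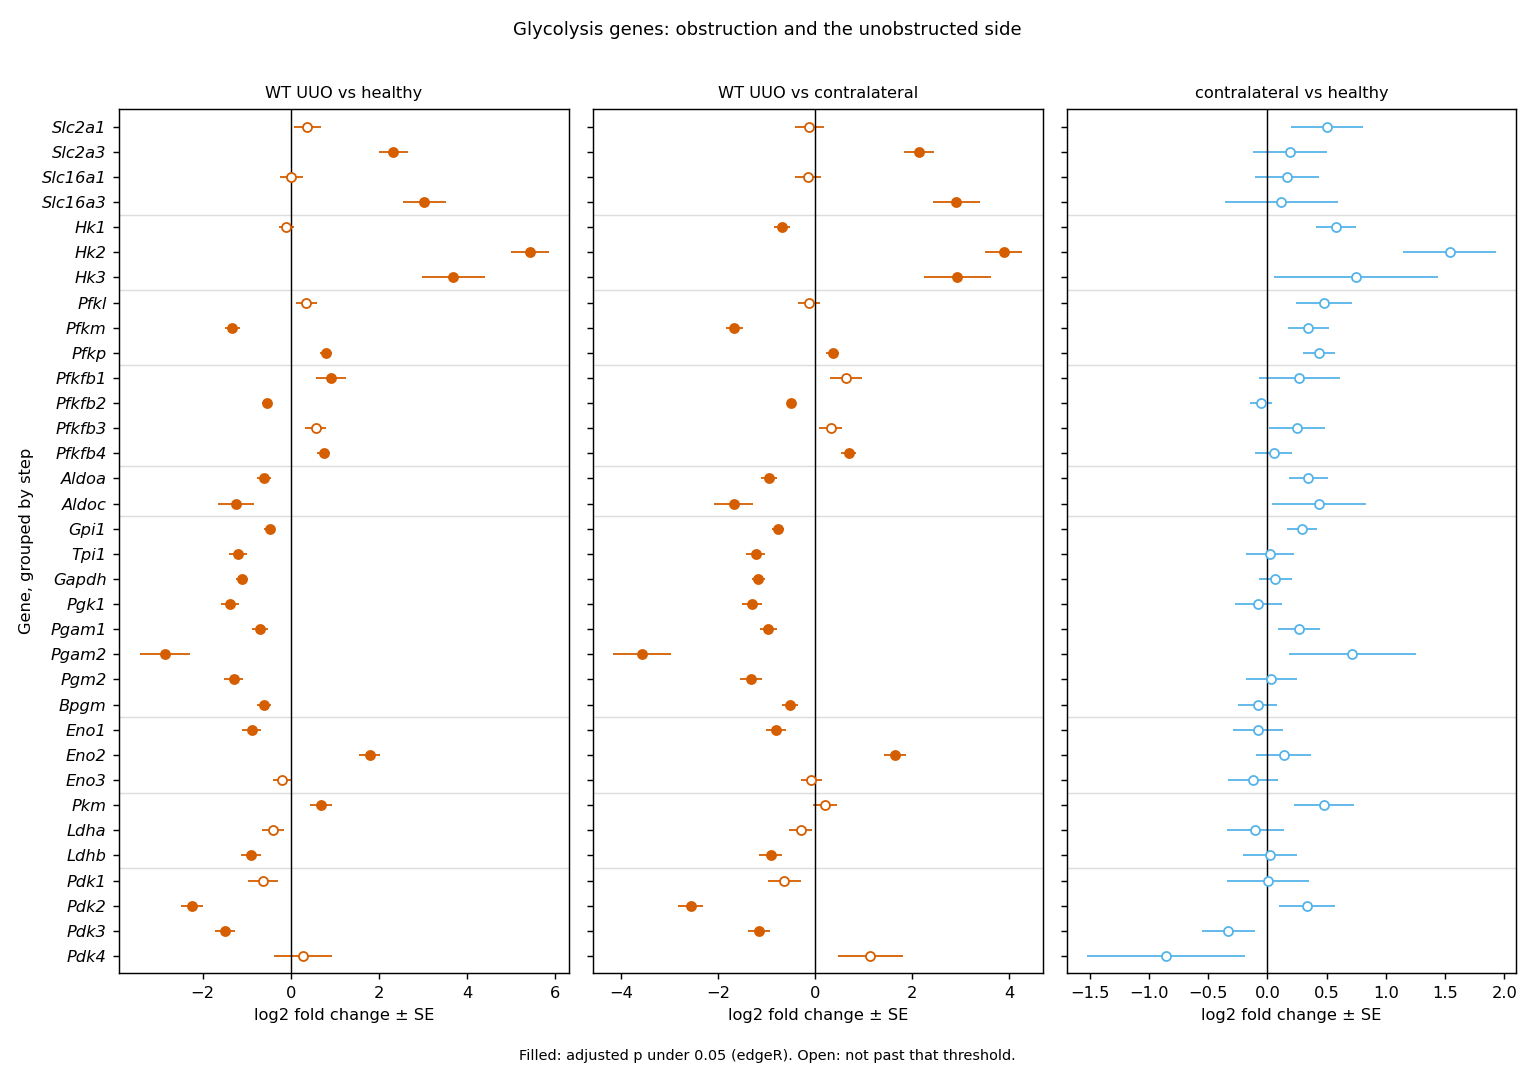
Log2 fold change ± SE (edgeR, n = 3 libraries per group) of the 34 members, ordered by step, for WT UUO against healthy, WT UUO against contralateral and contralateral against healthy kidneys, with a separate horizontal scale in each panel. Filled points passed an adjusted p of 0.05. Hk2, Hk3, Slc16a3, Slc2a3 and Eno2 stand to the right in both obstruction panels, the block from Aldoa to Bpgm stands to the left, and no point is filled in the third panel.

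Among the carriers, 2 rose and 2 did not pass the test. Slc2a3 encodes GLUT3, a high-affinity glucose transporter of neurons and leukocytes. It read 1.02, 1.21 and 1.18 CPM in healthy kidneys, 1.42, 1.43 and 1.03 on the contralateral side and 9.22, 3.97 and 3.94 in WT UUO. Every WT UUO library was above every unobstructed one, and the log2 fold change against healthy was 2.33 ± 0.32 SE (edgeR adjusted p = 1.8e-05). Slc16a3 encodes MCT4, the low-affinity lactate exporter of highly glycolytic cells. Its level was 0.834, 1.13 and 2.16 CPM in healthy, 1.26, 1.47 and 1.76 on the contralateral side and 21.5, 7.32 and 5.06 in WT UUO libraries. The change against healthy was 3.03 ± 0.49 on the log2 scale (edgeR adjusted p = 0.0001). For both carriers the library of replicate 1 is far above the other WT UUO libraries, and both calls held without it, with Slc16a3 then higher by 2.17 than in healthy and by 2.05 than in contralateral kidneys. The basal glucose carrier Slc2a1 (GLUT1, log2 fold change 0.38, edgeR adjusted p = 0.309) and the widely expressed lactate carrier Slc16a1 (MCT1, 0.01, edgeR adjusted p = 0.972) gave overlapping groups.

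The hexokinases showed the widest movement. Hk2, on chromosome 6 (82725025 to 82774454, minus strand), encodes the inducible hexokinase of muscle, fat and tumours. It read 0.468, 0.533 and 1.30 CPM in healthy kidneys, 2.43, 2.17 and 2.25 on the contralateral side and 48.7, 26.8 and 25.9 in WT UUO, so the 3 groups did not overlap. The mean rose from 0.768 ± 0.464 to 33.8 ± 12.9 CPM (SD, n = 3), a log2 fold change of 5.42 ± 0.42 SE (edgeR adjusted p = 1.56e-07). Against contralateral kidneys the change was 3.89 (edgeR adjusted p = 1.4e-06). Hk3, the hexokinase of myeloid cells, read 0.061, 0.0819 and 0.899 CPM in healthy, 0.615, 0.669 and 0.541 on the contralateral side and 4.01, 7.40 and 2.58 in WT UUO libraries (log2 fold change against healthy 3.68 ± 0.72, edgeR adjusted p = 0.000465). The healthy values rest on 3, 4 and 58 counts, so the size of this change is uncertain. Without healthy replicate 3 it was 5.99 for Hk3 and 6.07 for Hk2. The 8 macrophage and monocyte markers moved with it, from a sum of 78.3 to 158 CPM in the unobstructed libraries to 695 to 1105 in WT UUO, and their part in the Hk3 result was not tested. Hk1, the housekeeping form, did not pass the test against healthy kidneys (-0.10, edgeR adjusted p = 0.629). Against contralateral kidneys it was lower, at 90.1, 76.5 and 88.9 CPM compared with 138, 123 and 149 (log2 fold change -0.68, edgeR adjusted p = 0.00336).

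At phosphofructokinase, the muscle-type gene fell and the platelet-type gene rose. Pfkm read 45.7, 33.7 and 38.6 CPM in healthy and 16.4, 13.8 and 16.8 in WT UUO kidneys (log2 fold change -1.33 ± 0.18 SE, edgeR adjusted p = 1.37e-05). Pfkp read 51.6, 37.6 and 44.9 CPM in healthy, 60.8, 59.9 and 60.6 on the contralateral side and 90.8, 76.4 and 65.6 in WT UUO kidneys, and the groups did not overlap. It was higher by 0.80 ± 0.13 than in healthy kidneys (edgeR adjusted p = 0.000125) and by 0.36 ± 0.13 than in contralateral kidneys (edgeR adjusted p = 0.0323). The latter call was lost without replicate 1 of WT UUO (0.24, edgeR adjusted p = 0.173), and also when any 1 contralateral library or WT UUO replicate 2 was left out. The liver-type gene Pfkl did not pass in either comparison (0.35 and -0.13).

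The Pfkfb genes make and break fructose-2,6-bisphosphate, the strongest activator of phosphofructokinase. Pfkfb2, the heart and kidney form, fell from 63.0, 57.8 and 59.8 CPM in healthy kidneys to 44.6, 36.0 and 42.8 in WT UUO (-0.55, edgeR adjusted p = 0.000147). Pfkfb4 rose from 5.17, 8.71 and 7.29 CPM to 12.4, 12.0 and 11.0 (0.74, edgeR adjusted p = 0.000784), and both calls held against contralateral kidneys. Pfkfb3, the inducible form with the highest kinase activity, read 17.2, 20.5 and 17.1 CPM in healthy kidneys and 36.9, 21.6 and 22.9 in WT UUO, and did not pass the test (0.57, edgeR adjusted p = 0.0532). Pfkfb1, the liver form, passed against healthy kidneys (0.91, edgeR adjusted p = 0.0323), where the groups overlapped, and not against contralateral kidneys. That call was lost without replicate 1 of WT UUO (edgeR adjusted p = 0.16) and without replicate 1 or 2 of the healthy group.

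Aldoa, Aldoc, Gapdh, Pgk1 and Tpi1 were lower in WT UUO. Aldolase cleaves fructose-1,6-bisphosphate, and Aldoa was lower by 0.60 ± 0.16 and Aldoc, the brain form, by 1.25 ± 0.41 on the log2 scale against healthy kidneys, where both passed. Aldoc read 9.03, 6.47 and 5.21 CPM in healthy and 3.37, 2.28 and 3.06 in WT UUO libraries. Its call was lost without healthy replicate 1 (edgeR adjusted p = 0.071) and without WT UUO replicate 2 (0.0636). Gapdh, the dehydrogenase that many laboratories use as a reference gene, read 585, 641 and 455 CPM in healthy, 551, 656 and 553 on the contralateral side and 294, 246 and 242 in WT UUO kidneys. Its level thus fell to 0.465 of the healthy one (log2 fold change -1.10 ± 0.14 SE, edgeR adjusted p = 8.96e-06). Pgk1, on chromosome X (106187100 to 106203699, plus strand), encodes the enzyme that makes the first ATP of the pathway. It read 181, 186 and 131 CPM in healthy, 159, 166 and 146 on the contralateral side and 82.9, 51.3 and 57.5 in WT UUO kidneys (-1.38 ± 0.20, edgeR adjusted p = 3.83e-05). Tpi1, the triose isomerase, read 370, 468 and 270 CPM in healthy and 178, 156 and 145 in WT UUO kidneys (-1.21 ± 0.20, edgeR adjusted p = 0.000125).

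Gpi1, Pgam1, Bpgm, Pgam2 and Pgm2 were lower as well. Gpi1, the isomerase after hexokinase, was lower by 0.48 and Pgam1, the widely expressed phosphoglycerate mutase, by 0.70 on the log2 scale, with edgeR adjusted p-values of 0.00503 and 0.00383. Bpgm, which makes 2,3-bisphosphoglycerate, was lower by 0.61 against healthy and by 0.52 against contralateral kidneys (edgeR adjusted p = 0.0057 and 0.0146). The latter call was lost without contralateral replicate 2 (edgeR adjusted p = 0.0623) and without WT UUO replicate 2 (0.0669) or 3 (0.0625). Pgam2, the muscle-type mutase, had the steepest fall of the set, from 40.8, 20.5 and 27.0 CPM in healthy and 43.7, 47.8 and 53.6 on the contralateral side to 2.02, 5.00 and 5.18 in WT UUO kidneys (-2.85 ± 0.58 against healthy, edgeR adjusted p = 0.000666). The 5 skeletal muscle markers found summed to at most 1.43 CPM in any library, with Tnnc2 at 0 in every group but the healthy one and Ckm at 0 in WT UUO. The symbol Pgm2 fell from 61.0, 66.9 and 45.1 CPM to 30.1, 20.1 and 20.3 (-1.29 ± 0.22, edgeR adjusted p = 0.000136), and the symbol Pgm1, outside the set, rose by 1.10 (edgeR adjusted p = 1.34e-06). These symbols of phosphoglucomutases have been exchanged between annotations, so which locus each one names in this table is not settled here and no position is given. Aldoa, Gapdh, Pgk1, Tpi1, Pgam1, Eno1, Pkm and Ldha have near-identical pseudogene copies, and how reads shared with those copies were counted is not given in the sources used.

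Enolase changed its makeup. Eno1, the common form, read 251, 252 and 184 CPM in healthy and 149, 113 and 110 in WT UUO kidneys (-0.89 ± 0.21 on the log2 scale, edgeR adjusted p = 0.00249). Eno2, the neuron-type gene, read 1.57, 1.90 and 2.64 CPM in healthy, 2.25, 1.67 and 2.81 on the contralateral side and 7.20, 6.20 and 7.75 in WT UUO kidneys (1.79 ± 0.23, edgeR adjusted p = 1.2e-05). For both genes the WT UUO values did not overlap the healthy or the contralateral ones. Eno3, the muscle form, stayed between 2.40 and 4.78 CPM in these 9 libraries and did not pass (-0.20).

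At pyruvate kinase and lactate dehydrogenase 1 gene was higher, 1 lower and 1 did not pass. Pkm, on chromosome 9 (59656368 to 59679375, plus strand), encodes the M-type pyruvate kinases, and the counts do not separate its PKM1 and PKM2 splice forms. It read 230, 143 and 164 CPM in healthy, 238, 208 and 302 on the contralateral side and 417, 227 and 218 in WT UUO kidneys. It passed against healthy kidneys (0.68 ± 0.26 SE, edgeR adjusted p = 0.0334) although the groups overlapped, and not against contralateral kidneys (0.20, edgeR adjusted p = 0.528). Without replicate 1 of WT UUO the former was 0.32 (edgeR adjusted p = 0.26), and the call was also lost without healthy replicate 2 (0.128) or 3 (0.0923). Ldhb fell from 747, 695 and 504 CPM to 240, 427 and 375 (-0.90, edgeR adjusted p = 0.00372), while Ldha, the muscle-type subunit that favours lactate, did not pass (-0.40, edgeR adjusted p = 0.168). Replicate 2 of the healthy group and replicate 2 of the contralateral group were the highest of their groups in Ldha (370 and 344 CPM), Tpi1 (468 and 447) and Pdk3 (75.8 and 55.4). They are also the 1 library of each group with more Ddx3y than Xist counts, as in male mice. WT UUO replicate 2 was likewise the 1 such library of its group. It was not the highest there in Tpi1 (178, 156 and 145 CPM in replicate order) or Pdk3 (18.9, 18.7 and 18.1). The part of sex in these levels was not tested.

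Pyruvate dehydrogenase kinases shut the entry of pyruvate into mitochondria, and the 4 genes did not move together. Pdk2, on chromosome 11 (95026258 to 95041354, minus strand), is a widely expressed form. It read 135, 110 and 126 CPM in healthy, 158, 166 and 145 on the contralateral side and 22.2, 28.3 and 28.3 in WT UUO kidneys (-2.24 ± 0.25 against healthy, edgeR adjusted p = 2.55e-06). Pdk3 fell from 45.2, 75.8 and 36.6 CPM to 18.9, 18.7 and 18.1 (-1.50 ± 0.23, edgeR adjusted p = 5.44e-05). Pdk1, a HIF target, read 53.1, 40.5 and 53.2 CPM in healthy and 50.4, 21.3 and 23.0 in WT UUO kidneys and did not pass (-0.63, edgeR adjusted p = 0.132). Pdk4, the form induced by fasting, was at 42.8, 25.9 and 49.5 CPM in healthy and 69.1, 29.6 and 44.4 in WT UUO kidneys (0.28, edgeR adjusted p = 0.748).

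**Figure D2:**
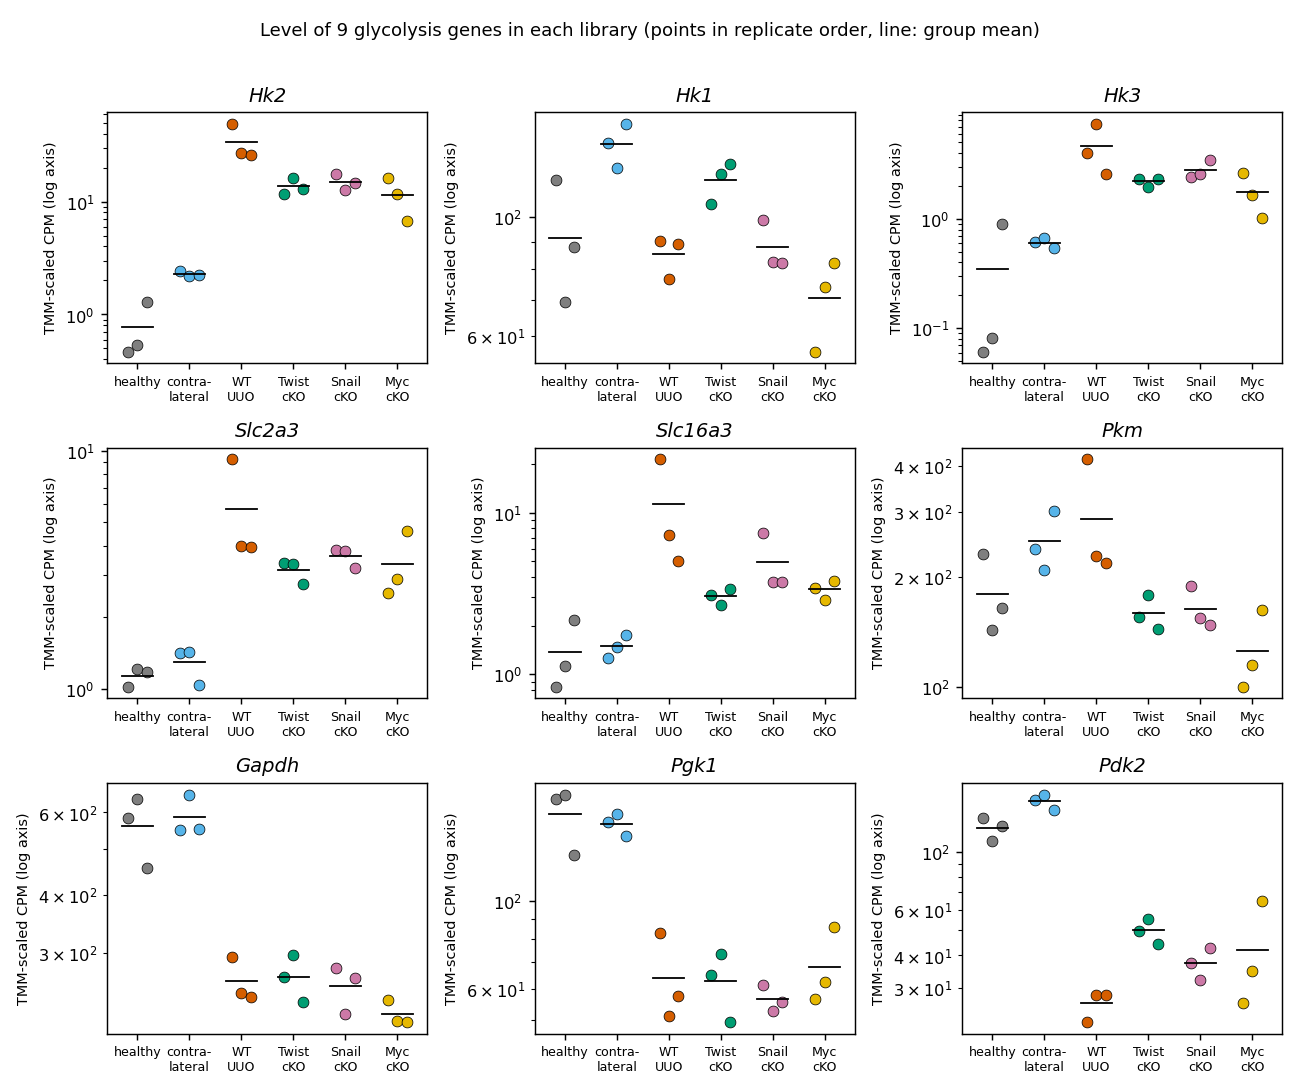
TMM-scaled CPM of 9 members in each of the 18 libraries, on log axes that differ between panels. Each point is 1 library, in replicate order within its group, and the line is the group mean. WT UUO replicate 1 is the highest point for Hk2, Slc2a3, Slc16a3 and Pkm, and all obstructed libraries lie below all unobstructed ones for Gapdh, Pgk1 and Pdk2.

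The wider pathway moved mostly down. Of 31 further genes of glucose handling, pyruvate transport and pyruvate dehydrogenase, 30 were found and 29 tested. In WT UUO 5 were higher and 19 lower than in healthy kidneys, with a median log2 fold change of -1.25, where 29.2% of all genes were higher and 27.1% lower. Against contralateral kidneys 4 were higher and 19 lower, where 27.5% of all genes were higher and 26.0% lower. Slc2a2 (GLUT2), the carrier that lets glucose leave the tubule cell, fell by 2.87 on the log2 scale against healthy kidneys. Slc16a7 (MCT2), a high-affinity pyruvate and lactate carrier, fell by 2.81. The mitochondrial pyruvate carrier genes Mpc1 and Mpc2 fell by 2.44 and 2.02, and Pdha1, a catalytic subunit of pyruvate dehydrogenase, by 1.78. Each of these 5 passed the test in both comparisons. All 8 proximal tubule markers were lower too, with a median log2 fold change of -3.67, and their part in the falls of the members and of this list was not tested.

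No member passed the test between the unobstructed (contralateral) side and healthy kidneys, where 1.96% of all genes were higher and 0.299% lower at an adjusted p under 0.05. With 3 libraries per group, this does not show that the groups were alike. At an unadjusted p under 0.05 there were 4 of 34 members, and the share of all genes at that threshold was not counted. DESeq2 called 3 members higher, namely Hk1 (0.58), Hk2 (1.56) and Pfkp (0.44). Hk2 was at 2.43, 2.17 and 2.25 CPM in contralateral kidneys and at 0.468, 0.533 and 1.30 in healthy ones, with no overlap, and edgeR gave a log2 fold change of 1.54 ± 0.39 SE and an adjusted p of 0.0546. Without healthy replicate 3, the highest healthy library in Hk2 and Hk3, edgeR called Hk2 (2.19, adjusted p = 0.0131) and Hk3 (3.06, adjusted p = 0.0131) higher. Without healthy replicate 1 it called Hk1 (0.80, adjusted p = 0.0413). The 6 markers of cycling cells summed to 35.1 to 57.7 CPM on the contralateral side and 10.3 to 19.7 in healthy kidneys. Their part in the Hk2 values was not tested. The median log2 fold change of the members was 0.18, against -0.01 over all genes. None of the 29 further pathway genes tested passed, and 2 had an unadjusted p under 0.05.

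Isoenzyme shares put the sister genes of a step on 1 scale. A share is the percentage that a gene contributes to the summed CPM per kilobase of its step, and 7 sets of sister genes are described, between the 12 obstructed and the 6 unobstructed libraries and between the 9 cKO and the 3 WT UUO libraries. P-values are from exact two-sided permutation tests over libraries, adjusted over the 16 tests made. Hk2 held 0.566, 1.08 and 2.03% of hexokinase in healthy kidneys, 2.43, 2.43 and 2.09% on the contralateral side and 41.2, 29.0 and 28.1% in WT UUO. Over all obstructed libraries its share was 20.8 ± 8.91% (SD, n = 12) against 1.77 ± 0.770% (n = 6), with no overlap (exact permutation adjusted p = 0.000575). The size of the Hk2 share depends on the length used. With the longest transcript as length it averaged 0.673% in healthy and 21.9% in WT UUO kidneys, and the difference between obstructed and unobstructed libraries was 12.1 in place of 19.0 percentage points (exact permutation adjusted p = 0.0019). With WT UUO as the only obstructed group that difference was 31.0 points. Hk1 remained the major form in every library, at 53.3 to 67.4% in WT UUO, and Hk3 reached 13.0% in replicate 2 of that group.

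At phosphofructokinase Pfkp held 32.7 ± 4.88% in obstructed and 16.1 ± 0.870% in unobstructed libraries (exact permutation adjusted p = 0.000431, from the smallest p these groups allow, 5.39e-05). Pfkm went the other way, from 55.9 ± 1.03% (n = 3) in healthy to 26.5 ± 4.47% (n = 3) in WT UUO kidneys. Pfkl, whose level did not pass the test, held 28.2 ± 1.48% in healthy and 41.2 ± 6.20% in WT UUO kidneys (n = 3 each). The shift was thus not only from Pfkm to Pfkp, and the level of Pfkm fell. Eno1 fell from 94.0 ± 1.71% to 85.7 ± 2.80% of enolase (exact permutation adjusted p = 0.000431). Eno2 held 0.673 to 1.49% in healthy and 4.90 to 6.90% in WT UUO kidneys. Eno3 held 5.08 ± 2.24% in healthy and 7.32 ± 0.553% in WT UUO kidneys (n = 3 each), with overlap. The level of Eno3 did not pass the test, and the level of Eno1 fell. With the longest transcript as length the fall in the Eno1 share was smaller, a difference of -5.10 in place of -8.29 percentage points, and passed. Between Aldoa and Aldoc alone the share of Aldoa moved only from 98.6 to 99.1% (exact permutation adjusted p = 0.00172).

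Among the Pdk genes, Pdk4 held 11.3 ± 4.90% in unobstructed and 35.0 ± 12.7% in obstructed libraries (exact permutation adjusted p = 0.00172), while Pdk2 held 50.7 ± 4.81% in healthy and 26.1 ± 7.91% in WT UUO kidneys (n = 3 each). The level of Pdk4 did not pass the test, and the levels of Pdk2 and Pdk3 fell. Pfkfb3 held 20.9 ± 2.60% of the Pfkfb step in unobstructed and 27.7 ± 3.92% in obstructed libraries, with overlap (exact permutation adjusted p = 0.00406). Pfkfb4 held 11.5 ± 2.70% in healthy and 19.9 ± 2.55% in WT UUO kidneys, and Pfkfb2 held 66.5 ± 4.26% and 46.3 ± 4.09% (n = 3 each). The level of Pfkfb3 did not pass the test, while that of Pfkfb4 rose and that of Pfkfb2 fell. The share of Ldha did not pass the test, at 16.9 ± 5.32% (n = 12) against 15.8 ± 3.48% (n = 6) (exact permutation p = 0.73). With no length correction Pfkp averaged 54.3% and Ldha 37.8% of their steps in WT UUO, in place of 32.3 and 22.8%, and 36.1 and 29.1% in healthy kidneys, in place of 15.8 and 16.4%. With contralateral kidneys as the only unobstructed group, the share of Pfkfb3 no longer passed (exact permutation adjusted p = 0.0703).

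**Figure D3:**
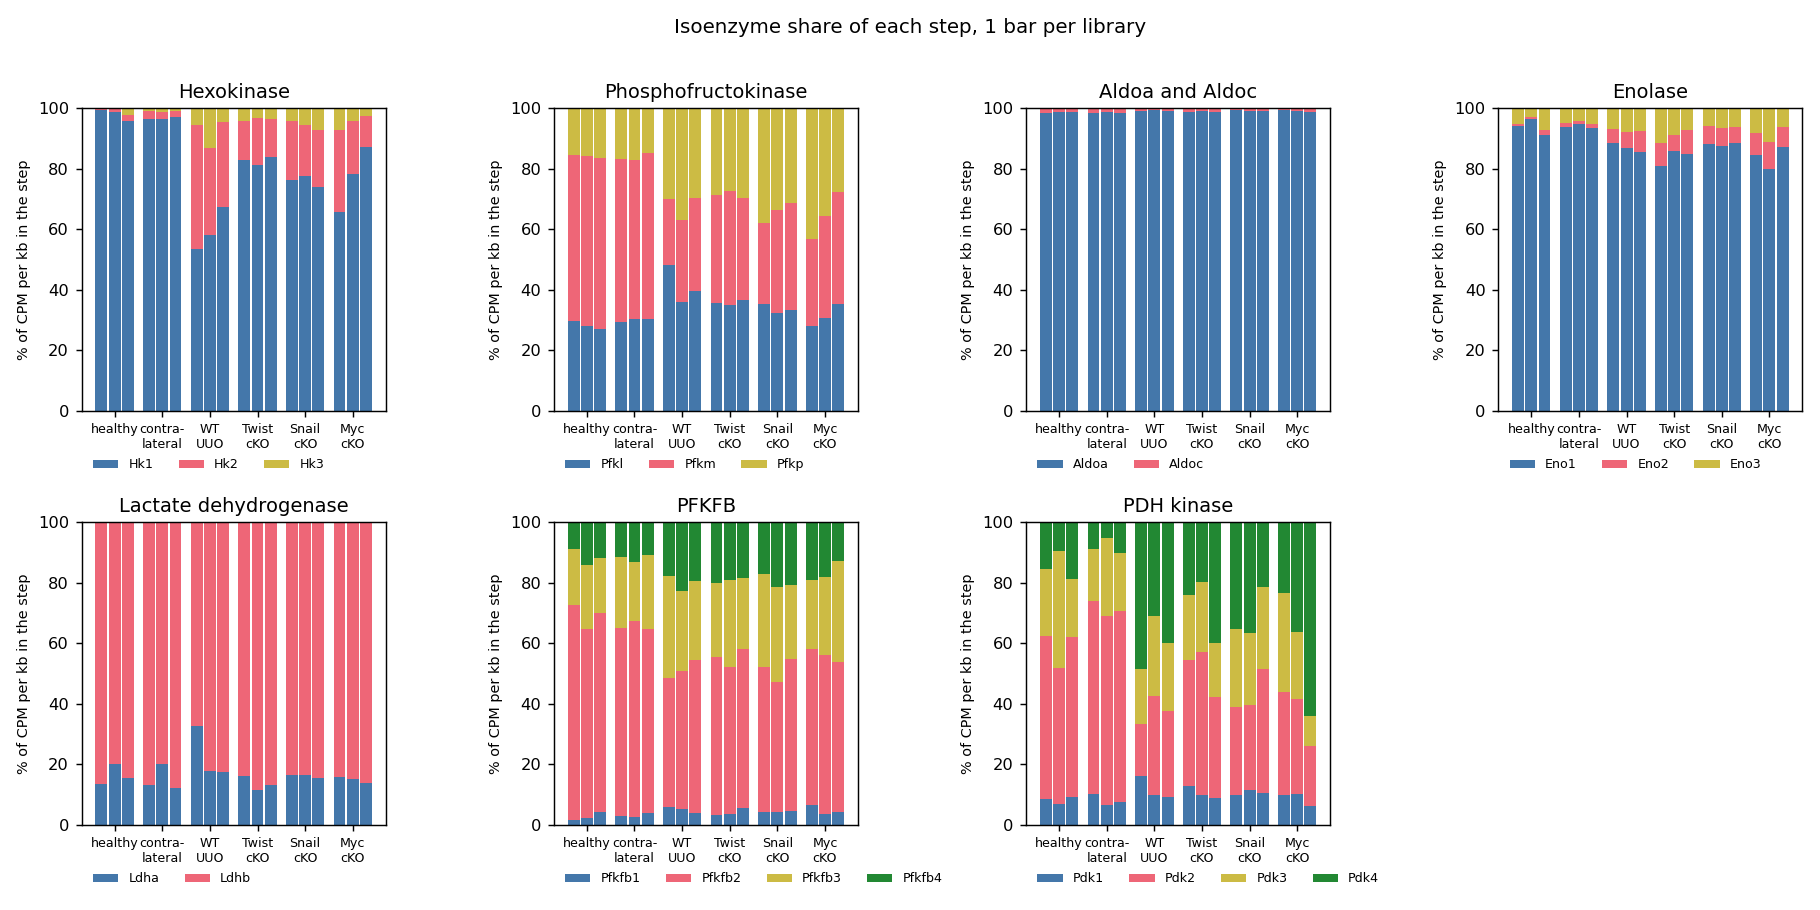
Percentage that each isoenzyme contributes to the summed CPM per kilobase of its step, as stacked bars, 1 bar per library and 3 per group. Hk2 and Pfkp take a wider band in every obstructed library than in any unobstructed one, Aldoa fills nearly all of the panel it shares with Aldoc, and the Ldha band is widest, at 32.8%, in WT UUO replicate 1.

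Within obstructed kidneys, few members differed between a knockout and WT UUO. In Twist cKO kidneys Pdk2 was higher and Hk2 and Slc16a3 were lower, where 2.97% of all genes were higher and 2.31% lower. In Myc cKO kidneys no member was higher and Hk2, Pkm and Slc16a3 were lower, where 5.31% of all genes were higher and 6.91% lower. In Snail cKO kidneys no member passed by edgeR, where 0.162% of all genes were higher and 0.138% lower. There 5 members had an unadjusted p under 0.05 and DESeq2 called Hk2 and Pkm lower, without a share over all genes for either. The mean of the 3 cKO groups gave 1 higher member (Pdk2) and 3 lower ones (Hk2, Pkm and Slc16a3), where 4.38% of all genes were higher and 5.73% lower. All of these comparisons share the 3 WT UUO libraries, and their values are therefore set side by side and not counted as separate support. Summed markers of fibroblasts and of cycling cells were lower along with Hk2, Slc16a3 and Pkm. The 7 fibroblast and myofibroblast markers summed to 639 to 2818 CPM in the cKO libraries, all below the 2985 to 5897 of WT UUO, and 2 of them were lower in Twist, 0 in Snail (4 at an unadjusted p under 0.05), 3 in Myc and 6 for the mean by edgeR. The 6 markers of cycling cells summed to 76.1 to 156 CPM, all below the 171 to 237 of WT UUO, and 6 were lower in Twist, 0 in Snail (6 at an unadjusted p under 0.05), 1 in Myc and 6 for the mean. Other marker lists moved as well. For the mean of the 3 groups all 8 macrophage and monocyte markers were below 0 (median log2 fold change -0.67, 3 called). So were all 6 urothelial markers (median -2.27, 1 called), while all 8 proximal tubule markers were above 0 (median 1.32, 4 called). The part of any of these markers in the falls of Hk2, Slc16a3 and Pkm was not tested.

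Hk2 read 48.7, 26.8 and 25.9 CPM in WT UUO, against 11.7, 16.1 and 13.0 with Twist deleted, 17.4, 12.6 and 14.5 in Snail cKO and 16.1, 11.6 and 6.79 in Myc cKO kidneys. Every cKO library was below every WT UUO library and above every unobstructed one. The log2 fold changes against WT UUO were -1.31 ± 0.34 in Twist (edgeR adjusted p = 0.0416), -1.19 ± 0.34 in Snail (0.133) and -1.56 ± 0.35 in Myc cKO kidneys (0.012). For the mean of the 3 groups the change was -1.35 ± 0.26 (edgeR adjusted p = 0.00863). Without replicate 1 of WT UUO the Hk2 change was -0.95 in Twist, -1.18 in Myc and -0.98 for the mean, and none passed (edgeR adjusted p = 0.209, 0.0682 and 0.112). The Twist call was also lost without WT UUO replicate 2 (edgeR adjusted p = 0.0667) or without any 1 Twist cKO library (0.106 to 0.12), and the Myc call without Myc cKO replicate 3 (0.0531).

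Slc16a3 was at 21.5, 7.32 and 5.06 CPM in WT UUO, against 3.12, 2.69 and 3.36 with Twist deleted, 7.51, 3.71 and 3.71 in Snail cKO and 3.44, 2.87 and 3.76 in Myc cKO kidneys. The Twist and Myc groups lay below WT UUO, and replicate 1 of Snail cKO lay among the WT UUO libraries. Changes were -1.89 ± 0.47 in Twist (edgeR adjusted p = 0.0358), -1.18 ± 0.46 in Snail (0.247), -1.75 ± 0.47 in Myc (0.0263) and -1.61 ± 0.34 for the mean (0.014). Leaving out WT UUO replicate 1 gave Slc16a3 changes of -1.01 in Twist, -0.87 in Myc and -0.73 for the mean, and none passed (edgeR adjusted p = 0.209, 0.186 and 0.251). The Twist call was also lost without any 1 Twist cKO library (edgeR adjusted p = 0.0881 to 0.129), and the Myc call without Myc cKO replicate 2 (0.0815) or 3 (0.0797).

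Pkm read 417, 227 and 218 CPM in WT UUO, against 155, 178 and 144 with Twist deleted, 189, 155 and 147 in Snail cKO and 100, 115 and 162 in Myc cKO kidneys, with no overlap between WT UUO and the rest. It changed by -1.20 ± 0.26 in Myc cKO kidneys (edgeR adjusted p = 0.0104) and by -0.95 ± 0.20 for the mean (0.0123). The values of -0.85 in Twist and -0.81 in Snail cKO kidneys did not pass (edgeR adjusted p = 0.0655 and 0.166). Without replicate 1 of WT UUO the Pkm change was -0.81 in Myc cKO kidneys and -0.57 for the mean, and neither passed (edgeR adjusted p = 0.0593 and 0.15).

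Pdk2 went the other way, with 22.2, 28.3 and 28.3 CPM in WT UUO, against 49.8, 55.4 and 44.4 with Twist deleted, 37.3, 32.3 and 42.7 in Snail cKO and 26.3, 34.8 and 64.5 in Myc cKO kidneys. All Twist and Snail cKO libraries were above WT UUO, and all were far below the lowest unobstructed library, at 110 CPM. The change was 0.93 ± 0.24 in Twist (edgeR adjusted p = 0.0394), 0.51 in Snail (0.331), 0.67 in Myc (0.0774) and 0.70 ± 0.20 for the mean (0.0407). Without WT UUO replicate 1 the Pdk2 change was 0.83 in Twist and 0.61 for the mean, close to the values with it, and neither passed (edgeR adjusted p = 0.172 and 0.227). The Twist call was also lost when any other single library of the 2 groups was left out, and the call for the mean without WT UUO replicate 2 or 3, Twist cKO replicate 1 or 2, or Snail cKO replicate 1 or 3 (edgeR adjusted p = 0.0563 to 0.0884).

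**Figure D4:**
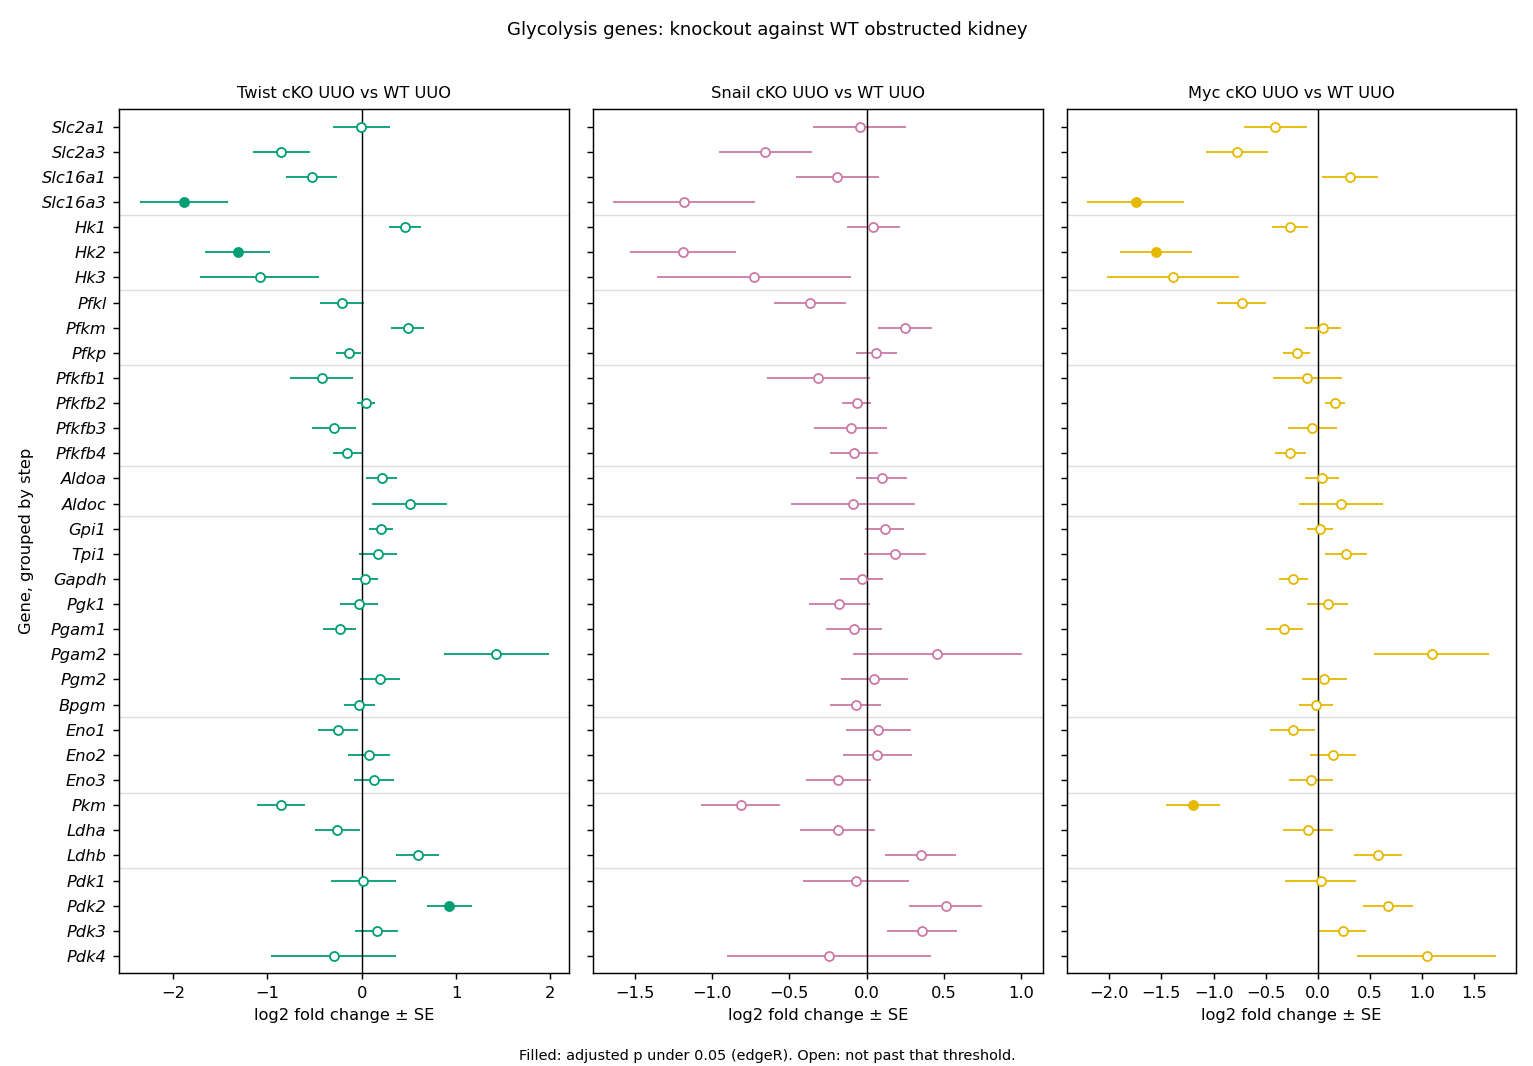
Log2 fold change ± SE (edgeR, n = 3 libraries per group) of the 34 members in the Twist, Snail and Myc cKO kidneys against WT UUO, ordered by step, with a separate horizontal scale in each panel. Filled points passed an adjusted p of 0.05: Slc16a3, Hk2 and Pdk2 in Twist, none in Snail, and Slc16a3, Hk2 and Pkm in Myc cKO kidneys.

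Among the members that passed in no knockout, Slc2a3 was at 9.22, 3.97 and 3.94 CPM in WT UUO and between 2.53 and 4.61 in the cKO libraries, and the mean change of -0.76 ± 0.23 did not pass (edgeR adjusted p = 0.0521). Without WT UUO replicate 1, the library with 9.22 CPM, the Slc2a3 change was -0.22 (edgeR adjusted p = 0.666). It passed by DESeq2 (-0.76, adjusted p = 0.0242) and by edgeR without WT UUO replicate 2 or 3 or Myc cKO replicate 3 (-0.95, -0.96 and -0.86, adjusted p = 0.0499, 0.0376 and 0.0297). Hk3 read 1.03 to 3.48 CPM in the cKO libraries, where the macrophage and monocyte markers summed to 443 to 702 CPM, and did not pass in any group. Gapdh, Pgk1, Tpi1, Eno1, Eno2, Pfkp and Pfkfb4, which had all changed with obstruction, differed from WT UUO by at most 0.27 on the log2 scale in any cKO group, and none passed. Some others that had fallen with obstruction averaged higher in the cKO groups and passed in none by edgeR. Ldhb averaged 347 CPM in WT UUO and 524, 443 and 519 in Twist, Snail and Myc cKO kidneys. Pgam2 averaged 4.07 against 10.9, 5.59 and 8.70, and Pfkm 15.7 against 22.0, 18.6 and 16.3. Of all 34 members, 16 changes were above 0 and 18 below in Twist, 13 and 21 in Snail, and 16 and 18 in Myc cKO kidneys. The median log2 fold change of the members was -0.01 in Twist, -0.07 in Snail and -0.04 in Myc cKO kidneys.

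Myc cKO replicate 3 stands apart in several members. Pdk4 was at 20.0, 44.5 and 231 CPM in the Myc cKO libraries, Pgam2 at 2.80, 6.24 and 17.1, and Pdk1 at 18.7, 27.6 and 50.3, each with its highest value in that library. The 6 adipocyte markers summed to 96.4 CPM there, 65.5 in replicate 1 and 0.0982 in replicate 2, and sums of 73.6 to 168 were also found in 1 or 2 libraries of each of 4 other groups. That library also had the highest proximal tubule sum (4236 CPM) and the lowest fibroblast and myofibroblast sum (639 CPM) of the obstructed libraries. Its neutrophil markers summed to 37.5 CPM, against 7.73 and 9.98 in replicates 1 and 2, and its erythroid markers to 172, against 24.8 and 48.0. Its share of mitochondrial ribosomal RNA, 34.9%, was the highest of the obstructed libraries. The part of any of these in the Pdk4, Pgam2 and Pdk1 values was not tested. With both this library and WT UUO replicate 1 left out, a choice made after seeing the data, Pkm was the 1 member called in Myc cKO kidneys (-1.05, edgeR adjusted p = 0.0387), and Hk2 (-0.93) and Slc16a3 (-0.97) did not pass (edgeR adjusted p = 0.17 and 0.28).

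Between knockouts, Hk1 was the 1 member that passed in Myc against Twist cKO kidneys, where 0.442% of all genes were higher and 2.55% lower. It read 56.1, 74.0 and 82.1 CPM in Myc and 106, 120 and 125 in Twist cKO kidneys, with no overlap (-0.73 ± 0.17 SE, edgeR adjusted p = 0.034). The call was lost in 5 of the 6 fits that left out 1 library of the pair. No member passed in Myc against Snail cKO kidneys by edgeR or DESeq2, where edgeR called 0.523% of all genes higher and 1.92% lower. There 1 member had an unadjusted p under 0.05.

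In the knockouts 2 of the 7 shares described differed from WT UUO. Hk2 held 32.8 ± 7.31% of hexokinase in WT UUO (n = 3) and 16.8 ± 4.88% in cKO libraries (n = 9), without overlap (exact permutation p = 0.00455, the smallest that 220 arrangements allow, adjusted p = 0.00727). Without WT UUO replicate 1 the difference in the Hk2 share was -11.8 percentage points and still passed (exact permutation adjusted p = 0.0364). Ldha held 22.8 ± 8.67% (n = 3) and 14.9 ± 1.70% (n = 9) of lactate dehydrogenase (exact permutation adjusted p = 0.00727). Without that library the difference in the Ldha share became -2.82 points and no longer passed (exact permutation adjusted p = 0.0873). The level of Ldha averaged 204 CPM in WT UUO and 171, 179 and 191 in Twist, Snail and Myc cKO kidneys. That of Ldhb averaged 347 in WT UUO and 524, 443 and 519 in the same cKO groups. Neither level passed the edgeR test in a knockout. The shares of Pfkp, Aldoa of Aldoa and Aldoc, Eno1, Pfkfb3 and Pdk4 did not pass (exact permutation adjusted p of 0.648 to 0.886).

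The further pathway genes that differed in the knockouts were mostly higher. In Twist cKO kidneys 3 of 29 were higher and none lower, where 2.97% of all genes were higher and 2.31% lower. In Myc cKO kidneys 10 were higher and 1 lower, where 5.31% of all genes were higher and 6.91% lower. In Snail cKO kidneys none passed by edgeR, where 0.162% of all genes were higher and 0.138% lower. Of the 29, 7 had an unadjusted p under 0.05. Slc2a2 was higher by 1.06 in Twist and 1.53 in Myc cKO kidneys on the log2 scale (edgeR adjusted p = 0.0403 and 0.0047). Dld, Pdha1, Pdhb, Mpc1 and Mpc2 were higher in Myc cKO kidneys by 0.57 to 0.90 on the log2 scale. Adpgk, an ADP-dependent glucokinase, was the 1 gene of the list that was lower there (-0.54, edgeR adjusted p = 0.0182). Of the 8 proximal tubule markers, 5 were higher in Twist and 5 in Myc cKO kidneys than in WT UUO and 1 in Snail cKO kidneys, and their part in these differences was not tested.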

How the data were processed

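RNA of 18 mouse kidneys in 6 groups was sequenced after a stranded whole-transcriptome library kit, per the labels' protocols. The deposited table holds whole-number counts per gene symbol, which the authors made with bcl2fastq 1.8.4 and HTSeq on mm10 and used with DESeq2, per the submitters' processing notes. The aligner, the annotation, the strand setting and the handling of reads shared by several genes are not given in the sources used. Of 24 columns, 18 match a sample and 6 match none and were not used. A second, normalized table was not used. Total counts ran from 52637555 to 91340782 per library, so for most members the spread between libraries, and not depth, sets the precision. Hk3 in healthy kidneys rests on few counts.

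The counts were tested with edgeR 4.0.16 (R 4.3.3): filterByExpr left 21050 genes, TMM scaling, 1 robust quasi-likelihood fit over all 6 groups (12 residual degrees of freedom), 9 contrasts, two-sided, Benjamini-Hochberg adjustment over all genes and a threshold of 0.05. SE is the log2 fold change divided by the square root of F. Shares of all genes called were counted only for edgeR at an adjusted p under 0.05. Counts at an unadjusted p, or by DESeq2, therefore have no matching share over all genes beside them. The script was tested on simulated counts. Levels are TMM-scaled CPM, and per kilobase of union exon of GENCODE M21 where genes are compared. Isoenzyme shares were tested with exact permutation tests over libraries, adjusted over 16 tests, of which 1 step and some genes of the wider list are not reported here. With 3 libraries against 3 an exact permutation test cannot go below p = 0.10, so single knockouts have no share test. Promoter windows are from RefSeq (GRCm38.p6), where 32 members had an entry that could be used.

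The members, gene lists, marker lists and tests were chosen with earlier results of these data known. All 34 members are accounted for between WT UUO and healthy kidneys, and in the knockout comparisons every member called by edgeR is named. Per-library values are given for members called against healthy kidneys with a log2 fold change of at least 1 in size. They are also given for members called in a knockout and for most, not all, isoenzymes whose share is described. A few more are shown where their call or its loss is described. Alternatives were other scalings, count filters, DESeq2 1.42.0, limma 3.58.1 (voom), Cre presence or sex as covariate, only the groups compared, each library left out, other length corrections, and other pools of groups.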

Additional observations from a re-analysis of the deposited data

Results flagged for a closer look

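Hk1 was marked because its change under the same contrast, knockout against WT UUO, differed between 2 knockouts by a test of the difference itself. It was lower by 0.27 than in WT UUO in Myc cKO kidneys and higher by 0.46 in Twist cKO kidneys, and neither of these passed alone (edgeR adjusted p = 0.331 and 0.124). The difference between the knockouts was -0.73 ± 0.17 SE on the log2 scale (edgeR adjusted p = 0.034), with all 3 Myc cKO libraries below all 3 Twist cKO libraries. The groups also differ in strain mixture and in Cre driver, which cannot be told apart from the deleted gene.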

How the results depend on the processing

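No result that passed its test changed direction under any alternative. Of the 25 members called between WT UUO and healthy kidneys, 22 kept the call under all 16 alternatives, and so did 22 of the 24 called against contralateral kidneys. The exceptions were Aldoc, Pfkfb1 and Pkm in the former and Pfkp and Bpgm in the latter. None of the calls in the knockout comparisons was kept under all alternatives: those of Twist (3 members), Myc (3), the mean of the knockouts (4) and Myc against Twist cKO (1) each had at least 1 alternative without them. With DESeq2 the members called were 3 in place of 0 between contralateral and healthy kidneys, 5 in place of 3 in Twist, 2 in place of 0 in Snail, 5 in place of 3 in Myc cKO kidneys and 2 in place of 1 between Myc and Twist cKO. With at least 50 counts in 3 libraries 1 member was called between contralateral and healthy kidneys, and without a count filter 1 in Twist cKO kidneys. With only the groups compared, 0 were called in Myc cKO kidneys and 0 between Myc and Twist cKO. These have fewer residual degrees of freedom. With Cre presence as covariate, Aldoc, Pfkfb1, Pkm and Pdk2 lost a call. Sex as a covariate, added after seeing the data, left every count of members called the same. With WT UUO replicate 1 and Myc cKO replicate 3 both left out, also an added choice, 1 member was called in Myc cKO kidneys and 0 for the mean.

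With single libraries left out, members called ranged from 0 to 2 between contralateral and healthy kidneys, 0 to 3 in Twist, 0 to 4 in Myc, 0 to 5 for the mean and 0 to 3 between Myc and Twist cKO. The knockout difference in the share of Ldha ranged from -10.4 to -2.82 percentage points. With contralateral kidneys as the only unobstructed group, the obstruction difference in the share of Pfkfb3 was 5.30 points and did not pass. In single knockouts against WT UUO, which have no test, the share differed in Twist cKO by -3.71 points for Pfkp, -0.20 for Aldoa of Aldoa and Aldoc and -3.03 for Eno1, and in Snail cKO by 0.097 for Aldoa of Aldoa and Aldoc and 1.20 for Eno1. Where no cause is named, the cause was not tested.

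Upper quartile scaling moved the median of all genes by 0.11 (WT UUO against healthy) and 0.15 (against contralateral) on the log2 scale, and the call of Bpgm against contralateral kidneys was lost under it. Depth limits Hk3 in healthy kidneys. No paired analysis was possible because the labels give no replicate numbers shared between groups and do not say which kidneys come from 1 mouse.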
